A study of Homo sapiens and Mus musculus with 33 samples.

Results

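H3K4me3-only promoters of mouse colon epithelium were defined as H3K4me3 peaks narrower than 4 kb that lay within 1 kb of a gene start of the colon RNA table and overlapped no H3K18cr peak of the same tissue. The rule found 3556 such peaks among 12498 narrow promoter peaks of H3K4me3 (28.5%, 95% Wilson interval 27.7 to 29.3%) and among 27035 H3K4me3 peaks in all. The other 8942 narrow promoter peaks overlapped an H3K18cr peak and are called both-marked promoters. The rule used where peaks lie and how wide they are, and no read level, RNA value or base composition. The tables were counted on peak lists made once per mark, so each list is a single set without replicate spread, and the H3K18cr table holds values for its own 30338 peaks only. An H3K4me3-only promoter therefore has no H3K18cr value here, and the absence of a called peak is not a measured zero.

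The colon material was epithelium released with EDTA from male C57BL/6 mice. H3K4me3 was measured by ChIP-seq in 3 libraries with 1 input library (chromatin sequenced without antibody), H3K18cr in 2 libraries with 2 inputs, and RNA in 3 poly(A)-selected libraries from 3 mice. Colons were pooled for ChIP, and the paper's legend and methods differ on the number of mice, so the ChIP libraries may not be single animals. The human comparison used HCT116, an established colon carcinoma line, treated for 18 h with 5 µM MS275 (entinostat, an inhibitor of class I histone deacetylases) or with DMSO, its solvent, with 3 ChIP-seq libraries for each mark under each treatment, 1 input per treatment, and 4 RNA libraries per treatment.

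Trimethylation of lysine 4 of histone H3 marks the starts of genes and is laid down by SET1 and MLL complexes, which are drawn to CpG-rich DNA. It is found at active genes and, at a lower level, at many inactive genes of development whose promoters are CpG-rich. Crotonylation of lysine 18 is an acyl mark written by the acetyltransferase p300 and erased by class I histone deacetylases, and it is known from the starts of active genes.

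The stretches below show what kinds of DNA the rule brought together. They are the bases before the gene start that no exon of the GENCODE M21 annotation covers, within a window of 250 bases, read from RefSeq GRCm38.p6 on the strand of the gene, 5′ to 3′. Every CG dinucleotide is in capitals. The lines give the member pair with the highest H3K4me3 level (Dolk and Noa1), the member with the highest RNA level (Zg16), the highest member of the developmental, colon epithelial and leukocyte lists (Foxc1, Ascl2 and Cxcr4), and the both-marked promoter with the highest RNA level (Eef1a1) for contrast.

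Dolk, chr2:30286355-30286396, minus strand: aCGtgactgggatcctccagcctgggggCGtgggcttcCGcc
Noa1, chr5:77310085-77310146, minus strand: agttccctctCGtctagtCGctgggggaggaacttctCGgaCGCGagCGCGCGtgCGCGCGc
Zg16, chr7:127051981-127052227, minus strand: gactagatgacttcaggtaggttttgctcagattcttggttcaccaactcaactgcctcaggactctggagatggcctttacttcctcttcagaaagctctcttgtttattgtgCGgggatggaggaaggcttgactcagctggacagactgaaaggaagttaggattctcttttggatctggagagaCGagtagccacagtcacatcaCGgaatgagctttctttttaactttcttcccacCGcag
Foxc1, chr13:31806396-31806632, plus strand: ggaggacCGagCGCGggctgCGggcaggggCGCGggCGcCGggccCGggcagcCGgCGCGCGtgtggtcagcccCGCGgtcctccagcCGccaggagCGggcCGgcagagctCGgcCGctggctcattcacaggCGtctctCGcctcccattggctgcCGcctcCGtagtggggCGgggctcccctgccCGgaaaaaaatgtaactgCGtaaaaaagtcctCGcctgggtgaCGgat
Ascl2, chr7:142969265-142969514, minus strand: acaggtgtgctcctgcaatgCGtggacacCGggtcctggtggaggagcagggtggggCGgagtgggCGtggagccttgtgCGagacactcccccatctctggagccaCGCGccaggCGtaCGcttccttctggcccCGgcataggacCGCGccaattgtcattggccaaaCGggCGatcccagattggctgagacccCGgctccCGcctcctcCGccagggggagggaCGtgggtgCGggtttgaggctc
Cxcr4, chr1:128592294-128592543, minus strand: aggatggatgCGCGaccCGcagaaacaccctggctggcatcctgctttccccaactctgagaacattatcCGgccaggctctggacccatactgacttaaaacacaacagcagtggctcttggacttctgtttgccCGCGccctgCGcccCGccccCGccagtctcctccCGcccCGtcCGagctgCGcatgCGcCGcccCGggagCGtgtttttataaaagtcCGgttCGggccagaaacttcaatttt
Eef1a1, chr9:78489152-78489401, minus strand: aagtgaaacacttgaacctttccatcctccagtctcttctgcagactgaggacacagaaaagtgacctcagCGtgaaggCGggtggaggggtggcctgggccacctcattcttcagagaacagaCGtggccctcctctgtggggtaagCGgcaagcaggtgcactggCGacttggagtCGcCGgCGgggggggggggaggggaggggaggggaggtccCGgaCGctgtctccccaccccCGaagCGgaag

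The Foxc1 stretch held 29 CG dinucleotides in 237 bases and the Zg16 stretch 4 in 247 bases, which is an observed to expected CpG ratio of 0.93 against 0.29. Ascl2 and Cxcr4 each held 19 in 250 bases. The Dolk and Noa1 stretches are short, 42 and 62 bases, because another gene starts on the other strand, Nup188 and Polr2b respectively. The Eef1a1 stretch precedes the outermost start, which the RNA table uses, and most annotated Eef1a1 transcripts start elsewhere.

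In the colon RNA, the 14 epithelial markers (Epcam, Cdh1, Krt8, Muc2 and others) summed to between 22560 and 26211 CPM (counts scaled to the total of the library) per mouse, and all 14 were detected in each. The 10 leukocyte markers summed to between 42.9 and 74.5 CPM, the 10 connective tissue, muscle and vessel markers to between 51.1 and 63.8 CPM and the 6 nerve and glia markers to between 1.22 and 2.52 CPM. Sox10 was at 0 counts in every mouse. Total counts lay between 8166406 and 10707901 per RNA library, and reads in H3K4me3 peaks between 1105419 and 2711830 per ChIP library with 770954 for the input.

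The H3K4me3-only peaks were narrow and modestly marked. Their median width was 1350 bp (range 300 to 3900 bp), against 1800 bp at both-marked promoters, and 3015 of 3556 (84.8%) contained the gene start itself, against 95.5% of both-marked peaks. Gene starts on both strands lay within 1 kb of 8.86% of the members and of 16.5% of both-marked peaks. The nearest H3K18cr peak was at a median of 35251 bp, and 113 members (3.18%) had one within 1 kb without overlap.

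The H3K4me3 level of the members was lower than that of both-marked promoters in each of the 3 libraries. The median was 49.05, 69.5 and 85.7 reads per kb of peak (scaled by the authors) in libraries 1, 2 and 3, and 82.8, 143 and 187 at both-marked promoters. The difference of medians was -0.97 ± 0.19 on the log2 scale (SD, n = 3 libraries), and it went the same way in all 3. The upper quartile of the members (62.7, 98.7 and 129 reads per kb) lay below the lower quartile of the both-marked group (64.7, 107 and 139) in every library. Relative to the input, the median log2 enrichment, with 1 read added to each value, was 1.32, 1.82 and 2.12 at members and 2.00, 2.76 and 3.16 at both-marked promoters, a difference of -0.89 ± 0.19 (SD, n = 3). A single input serves all 3 libraries, and library 3, the deepest, had the highest enrichment in both groups.

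The share of H3K4me3-only promoters fell from decile to decile as narrow promoter peaks were ordered by H3K4me3 reads. It was 75.8% of 1250 peaks in the lowest decile (up to 59.6 reads, mean of 3 libraries), 24.6% in the middle (decile 5), and 0.96% in the highest decile, where 12 members stood above 411 reads. The plot of this share by decile shows a fall at every step, and members were present in every decile.

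**Figure D1:**
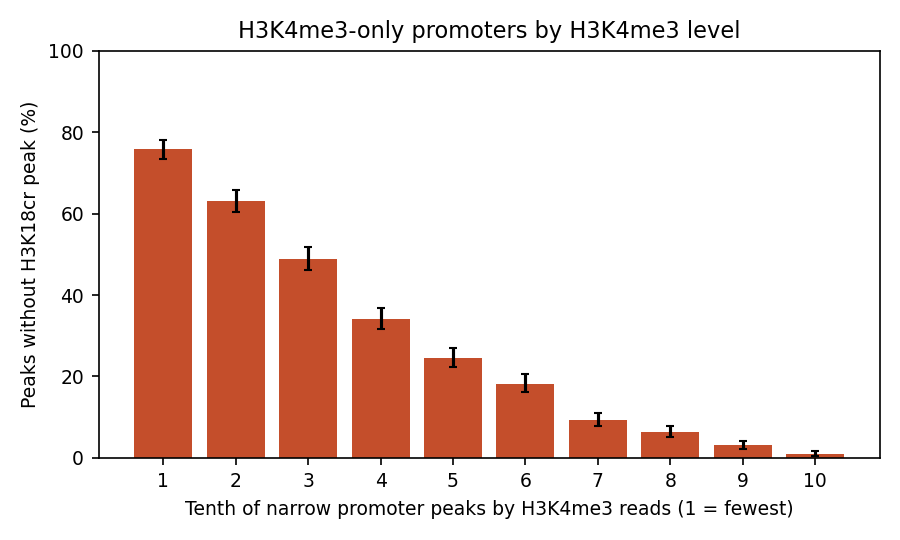
Share of narrow promoter peaks that overlapped no H3K18cr peak (y axis, percent, bars from 0), in deciles of all 12498 peaks by mean H3K4me3 reads of 3 libraries (x axis). Error bars are 95% Wilson intervals, which cover counting error only. The bars fall from 75.8% to 0.96%.

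The peak shared by Dolk (dolichol kinase, needed for protein glycosylation) and Nup188 (a nuclear pore protein) held 123, 251 and 374 reads per kb in libraries 1, 2 and 3, the highest mean of any member, and its 1950 bp held 37 input reads. Dolk RNA stood at 10.4, 11.4 and 9.85 CPM per kb of exon in mice 1, 2 and 3. Each value lay above the both-marked median of its mouse, given below.

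The peak of Noa1 (a mitochondrial GTPase) and Polr2b (a subunit of RNA polymerase II) held 130, 204 and 295 reads per kb, and Noa1 RNA was 8.11, 8.74 and 8.19 CPM per kb. Eif1ad, a translation factor gene whose start faces that of Banf1 (a chromatin-binding protein of the nuclear envelope), had 92.9, 227 and 291 reads per kb. Nip7, a ribosome assembly factor that shares its peak with Cog8 (a Golgi complex subunit), had 117, 204 and 283 reads per kb. These peaks, with those of Lsm7 and Uhrf1bp1, were the highest 6, and 5 of the 6 covered starts of more than 1 gene.

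Most genes at H3K4me3-only promoters had little RNA. Of the 3712 genes whose starts lay at such peaks and no other promoter peak, 2181 (58.8%, interval 57.2 to 60.3%) were under 1 CPM in every mouse and 1209 (32.6%) had 0 counts in every mouse. At both-marked promoters 856 of 10308 (8.30%) were under 1 CPM, and among genes with no H3K4me3 peak 82.5% of 11565 were. The median RNA level was 0.0350, 0.0485 and 0.0453 CPM per kb at members and 7.66, 7.80 and 7.51 at both-marked promoters. On the scale of log2(CPM per kb + 0.1) the difference of medians was -5.76 ± 0.07 (SD, n = 3 mice). With a pseudocount of 1 in place of 0.1 it was -3.05, and among genes of at least 1 CPM in a mouse it was -2.30. In bulk samples fewer cells of a type and less RNA per cell cannot be told apart.

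**Figure D2:**
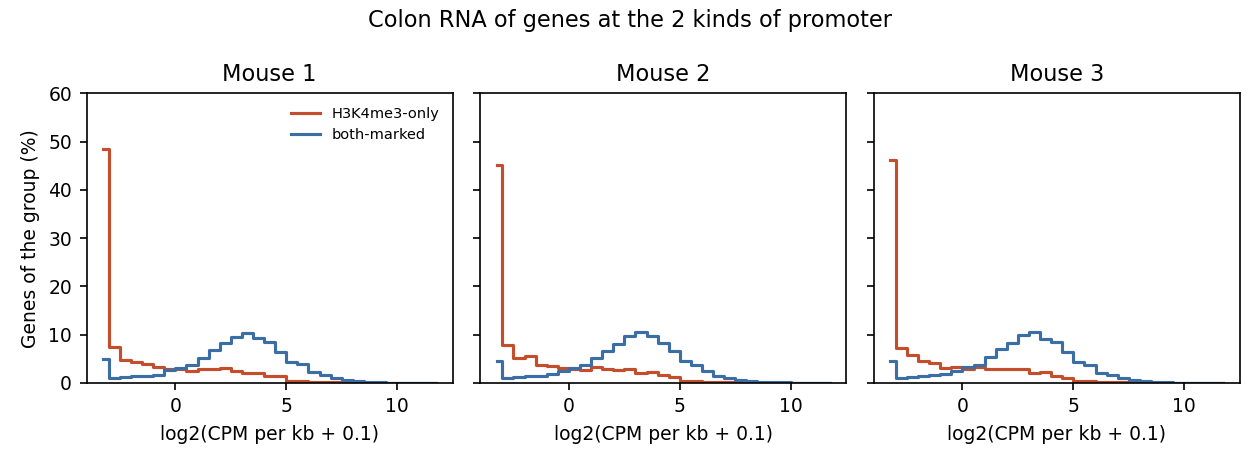
Colon RNA of genes at H3K4me3-only (orange) and both-marked (blue) promoters in each of 3 mice, as the percent of genes of the group (y axis) in bins of log2(CPM per kb of exon + 0.1) (x axis, log scale). The lowest bin holds the genes at or near 0 counts, where the orange line has its peak in every mouse.

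The gap in RNA was present within bins of H3K4me3 level and was smallest in the highest. Within quartiles of all narrow promoter peaks by H3K4me3 reads, the difference of medians, averaged over the 3 mice, was -5.55, -4.56, -5.07 and -3.79 on the same log2 scale from the lowest to the highest quartile. In deciles the difference lay between -5.42 and -4.08 up to decile 8 and was -3.38 in decile 9 and -1.74 in decile 10, which held 12 members. In the highest quartile 79 of 3125 peaks were members, and 30.9% of their genes were under 1 CPM in every mouse, against 6.49% at both-marked promoters. Both-marked promoters whose H3K18cr peak was in the lowest quartile by ratio to input had a median RNA level of 5.33, 5.33 and 5.19 CPM per kb, and those in the highest quartile 9.13, 9.27 and 9.01. The members thus lay below the both-marked promoters of the weakest called H3K18cr peaks in each mouse. That quartile also had more H3K4me3, at 72.8, 120 and 159 reads per kb against 49.05, 69.5 and 85.7 at members, so H3K4me3 was not matched here.

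A smaller set of members was transcribed. RNA reached 10 CPM in every mouse for 627 genes (16.9%) and 100 CPM for 65 genes (1.75%), against 74.3% and 18.1% at both-marked promoters. The 632 peaks with a gene of at least 10 CPM had more H3K4me3 (median 59.7, 98.1 and 126 reads per kb) than the 2013 peaks whose genes were all under 1 CPM (46.0, 62.4 and 73.1). Their nearest H3K18cr peak was at a median of 15676 bp against 49051 bp. Of the 581 genes in this set with annotated transcripts, 85 (14.6%) had another annotated start within 1 kb of an H3K4me3 peak that did overlap H3K18cr, against 17 of 1958 (0.87%) genes under 1 CPM. Without such genes the RNA difference between the promoter groups was -5.88 ± 0.09 (SD, n = 3).

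Of the 6 members with the most RNA, 1 (Zg16) is in the colon epithelial list. Zg16, a lectin-like protein secreted by goblet cells into the mucus, had 1630, 1292 and 902 CPM per kb, the most of any member, and mouse 3 was lowest. Its H3K4me3 peak was 750 bp wide with 52.1, 42.8 and 43.7 reads per kb, against 21.3 in the input. The promoter was thus weakly marked beside a very abundant RNA.

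Prss32, a serine protease gene, had 335, 315 and 357 CPM per kb with 39.2, 35.7 and 75.7 reads of H3K4me3 per kb, and another annotated start of this gene lay at a both-marked peak. Uqcr11, a subunit of respiratory complex III, had 296, 278 and 267 CPM per kb and a stronger peak of 80.5, 111 and 166 reads per kb. Ddost, a subunit of the oligosaccharyltransferase, had 197, 192 and 203 CPM per kb. The remaining pair were Ifitm2, an interferon-induced membrane protein (177, 191 and 158 CPM per kb), and Gm20390, whose row overlaps Nme1 and Nme2 in the RNA table, so that its reads may be split among them. RNA levels of the 6 varied less between mice than between genes, with Zg16 the most variable.

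**Figure D3:**
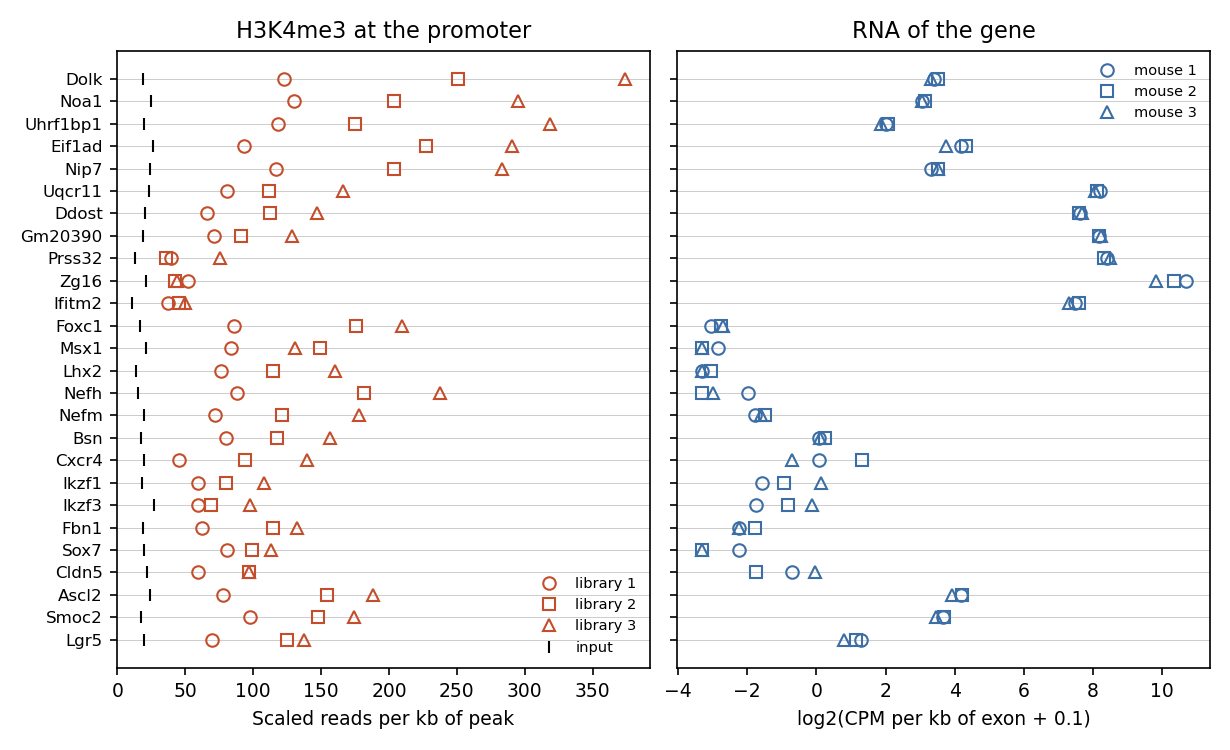
Left, H3K4me3 reads per kb of peak (x axis, scaled reads) in 3 libraries (open symbols) and the input (vertical ticks) at 26 named members. Right, RNA of the same genes in 3 mice as log2(CPM per kb of exon + 0.1). Genes from Foxc1 to Cldn5 stand at the left of the right panel although their H3K4me3 symbols lie right of the input ticks in every library, and Zg16 has the highest RNA beside a low H3K4me3 level.

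Gene groups differed widely in the share of their promoters that lacked an H3K18cr peak. Among all 14088 genes with a narrow H3K4me3 promoter peak this share was 26.3%, and it ranged over the 16 lists from 7.25% to 88.9%. The share also went with RNA level. Of genes under 1 CPM in every mouse 2181 were H3K4me3-only and 856 both-marked, and of genes of at least 10 CPM 627 and 7659. The lists were not compared with genes of like RNA level, so a high share in a list of mostly silent genes may not be particular to it. The lists were chosen with results of these data known, and the intervals cover counting error only. The plot of the lists gives each share with its interval.

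**Figure D4:**
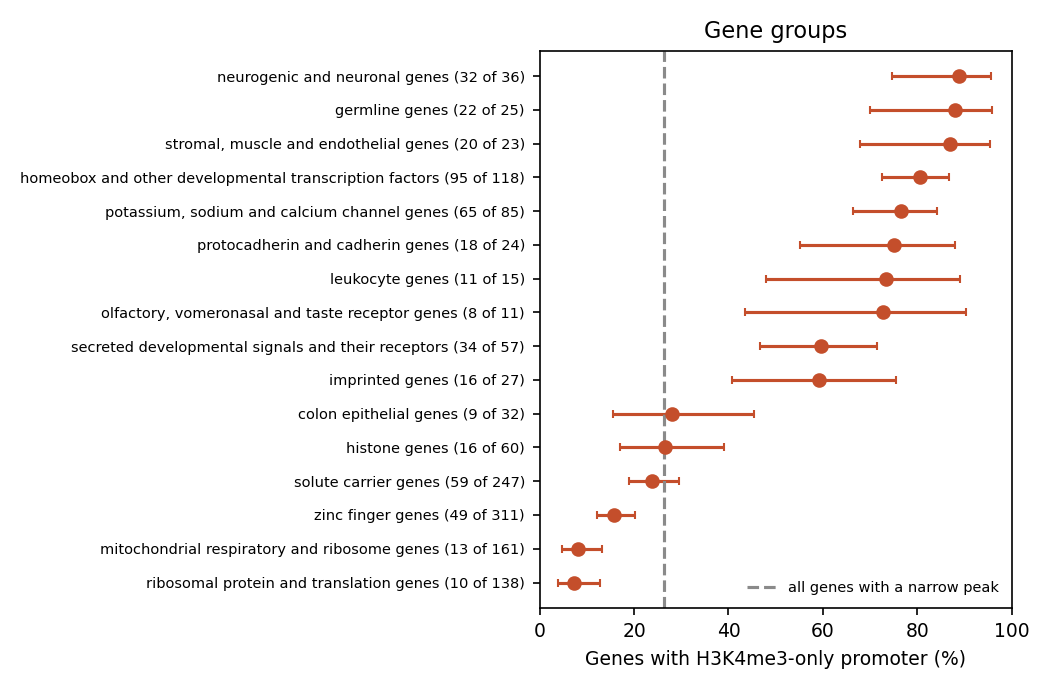
Share of genes with an H3K4me3-only promoter (x axis, percent) for 16 gene lists (y axis, with the number of H3K4me3-only genes of all genes with a narrow H3K4me3 promoter peak). Bars are 95% Wilson intervals and the dashed line is the share of all genes with such a peak, 26.3%. Developmental, neuronal, germline and stromal lists lie right of the line, and translation and mitochondrial lists left of it.

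Of 118 transcription factors of development with a narrow promoter peak, 95 (80.5%, interval 72.4 to 86.6%) were H3K4me3-only, 84 of the 95 were under 1 CPM and 63 at 0 counts in every mouse, and none (0) reached 10 CPM in all mice. Foxc1, a forkhead factor of mesoderm and eye development, had 85.7, 176 and 210 reads of H3K4me3 per kb over 3300 bp and 1, 3 and 3 RNA counts. Msx1, a homeobox factor of limb and craniofacial development, had 83.7, 150 and 131 reads per kb and 1, 0 and 0 counts. Lhx2, a LIM homeobox factor of forebrain development, had 76.6, 115 and 160 reads per kb and 0, 1 and 0 counts. All 3 promoters stood above their input in every library, at at least 1.97 on the log2 scale, beside RNA at the limit of detection.

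Of the neuronal genes 32 of 36 (88.9%) were H3K4me3-only, of which 21 were under 1 CPM and 7 had 0 counts in every mouse. Nefh, the heavy neurofilament chain of axons, had 88.1, 181 and 238 reads of H3K4me3 per kb and 5, 0 and 1 RNA counts. Nefm, the medium chain, had 71.8, 121 and 178 reads per kb and 9, 16 and 13 counts. Bsn, a scaffold protein of the presynaptic zone, differed in having 15.1, 17.4 and 15.5 CPM, and another annotated Bsn start lay at a both-marked peak.

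Channel genes for potassium, sodium and calcium had 65 of 85 (76.5%) H3K4me3-only promoters, led by Kcnj4 with 90.6, 123 and 194 reads per kb and 0 counts of RNA in every mouse. Of the secreted developmental signals and their receptors 34 of 57 (59.6%) were members. Wnt5b, a Wnt ligand, had 69.7, 130 and 196 reads per kb and 9, 7 and 0 counts, and Sfrp1, a secreted inhibitor of Wnt signalling, had 94.3, 145 and 125 reads per kb and 0, 13 and 1 counts. Fzd9, a Wnt receptor, was the exception with 19.96, 26.6 and 14.6 CPM. Cadherins and protocadherins gave 18 of 24, with Cdh24, Cdh4 and Cdh3 the highest in H3K4me3.

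Germline genes gave 22 of 25 (88.0%), of which 20 were under 1 CPM. Tdrd5, a Tudor protein of the piRNA pathway, had 85.2, 121 and 194 reads of H3K4me3 per kb and 1, 7 and 3 RNA counts. Stag3, a meiotic cohesin subunit, shares its peak with Gpc2 on the other strand and had 0, 1 and 1 counts. Of 1472 olfactory, vomeronasal and taste receptor genes only 11 had a narrow promoter peak, and 8 of these were members with 0 counts in every mouse.

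Genes of other cell types of the colon wall were also found among the members. Of 67 leukocyte genes measured only 15 had a narrow peak, of which 11 (73.3%, interval 48.0 to 89.1%) were H3K4me3-only. Cxcr4, a chemokine receptor, had 45.3, 94.3 and 140 reads of H3K4me3 per kb and 1.71, 4.30 and 0.93 CPM. Ikzf1, the lymphoid factor Ikaros, had 59.4, 80.2 and 108 reads per kb and 1.35, 2.43 and 5.77 CPM, and Ikzf3, Aiolos, had 1.71, 4.11 and 7.22 CPM. No (0) leukocyte member was under 1 CPM in every mouse, so each gave RNA. The 10 leukocyte markers summed to 42.9, 60.6 and 74.5 CPM in mice 1, 2 and 3. None (0) of them had an H3K4me3 peak within 1 kb of its start, although Ptprc had 13.8, 20.4 and 22.3 CPM. The part of leukocytes in the H3K4me3 signal was not tested.

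Of 50 stromal, muscle and endothelial genes measured 23 had a narrow peak. Of these, 20 (87.0%) were members, 9 of them under 1 CPM. Fbn1, fibrillin of elastic microfibrils, had 62.4, 115 and 132 reads of H3K4me3 per kb and 1.35, 2.33 and 1.34 CPM. Sox7, an endothelial transcription factor, had 80.8, 98.9 and 113 reads per kb and 3, 0 and 0 RNA counts, and Cldn5, a tight junction protein of endothelium, 0.73, 0.28 and 1.24 CPM. The muscle genes Des (desmin, 28.0, 13.3 and 15.8 CPM) and Myh11 (smooth muscle myosin, 8.57, 7.28 and 8.35 CPM), named after their values were seen, were also among the 20. The 10 connective tissue, muscle and vessel markers summed to 63.8, 51.1 and 56.0 CPM. Of these, Des, Myh11, Col1a1 and Col1a2 are members themselves and Vim was both-marked. Col3a1, Dcn, Acta2, Pecam1 and Cdh5 had no H3K4me3 peak within 1 kb of the start. The part of these cells in the H3K4me3 signal was not tested.

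Colon epithelial genes did not follow the pattern of low RNA. Their share of H3K4me3-only promoters was 9 of 32 (28.1%, interval 15.6 to 45.4%), beside 26.3% of all genes whatever their RNA level. RNA of 8 of the 9 reached 10 CPM in every mouse. Over all genes that reached it, 627 were H3K4me3-only and 7659 both-marked. The share of the list was not compared with genes of like RNA level. Ascl2, the transcription factor of intestinal stem cells, had 77.5, 154 and 188 reads of H3K4me3 per kb and 29.4, 29.9 and 24.6 CPM. Smoc2, a matricellular stem cell marker, had 97.4, 148 and 175 reads per kb and 86.9, 89.7 and 75.3 CPM, and Lgr5, the receptor that marks these stem cells, 70.1, 125 and 138 reads per kb and 24.1, 21.8 and 16.9 CPM. Named after their values were seen, the other 6 were Zg16, the microvillus protein Vil1, the tuft cell genes Dclk1 and Pou2f3, and the enteroendocrine granule genes Chga and Chgb. Their RNA ranged from 3.83 CPM (Pou2f3, mouse 2) to 2049 CPM (Zg16, mouse 1). Stem, tuft, enteroendocrine and goblet cells each make up part of the epithelium, and no value here tells their share of the H3K4me3 signal.

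At the other end were genes that nearly every cell uses. Of 138 ribosomal protein and translation genes 10 (7.25%) were H3K4me3-only, led by Eif1ad, Eefsec (the elongation factor for selenocysteine, 98.8, 176 and 243 reads per kb) and Eif2b3 (74.4, 166 and 220). Of 161 mitochondrial respiratory and ribosome genes 13 (8.07%) were, with Mrpl37, Mrps18c and Mrps22, all mitochondrial ribosomal proteins, the highest in H3K4me3. RNA of 8 of the 10 and 11 of the 13 reached 10 CPM in every mouse. Zinc finger genes gave 49 of 311 (15.8%). Solute carriers, with 59 of 247 (23.9%), and histone genes, with 16 of 60 (26.7%), lay near the 26.3% of all genes. Under 1 CPM in every mouse were 20 of the 49, 42 of the 59 and 10 of the 16.

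Imprinted genes, expressed from the allele of a single parent, gave 16 members of 27 (59.3%, interval 40.7 to 75.5%). Zdbf2, a paternally expressed gene, had 61.3, 93.1 and 150 reads of H3K4me3 per kb and 0 RNA counts in every mouse. Plagl1, a zinc finger factor that restrains growth, had 92.0, 96.3 and 114 reads per kb and 1.71, 2.71 and 2.89 CPM, and Mkrn3 had 53.6, 103 and 139 reads per kb and 0.12, 1.307 and 0.31 CPM. Of the 16, 5 were under 1 CPM and 3 reached 10 CPM in every mouse.

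The members were rich in CpG, though less so than both-marked promoters as a whole. The median observed to expected CpG ratio of the peak was 0.616 against 0.675, and in the window of 250 bases before to 50 after the gene start it was 0.652 against 0.783, with 0.192 for genes without an H3K4me3 peak. A ratio under 0.4 in that window was found at 22.1% of members and 10.6% of both-marked genes. For the peak the sign turned within quartiles of H3K4me3 reads per peak. There the median ratio of the peak was higher at members in all 4 quartiles, by 0.0573, 0.0416, 0.0288 and 0.0157 from the lowest to the highest. Members and both-marked peaks of a quartile may still differ in H3K4me3 and width. The window at the gene start was not compared within quartiles. The G and C content of the peak was 58.7% at members and 56.4% at both-marked promoters, whereas in the window at the gene start the order was the opposite, 59.7% against 61.3%.

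**Figure D5:**
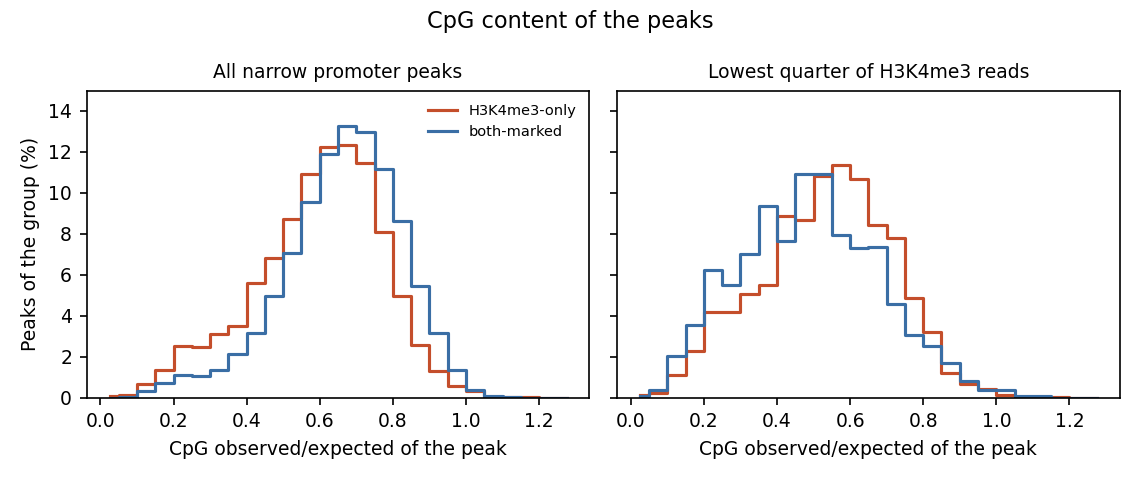
Observed to expected CpG ratio of the H3K4me3 peak (x axis) as percent of peaks (y axis) for H3K4me3-only (orange) and both-marked (blue) promoters, in all narrow promoter peaks (left) and in the quartile with the fewest H3K4me3 reads (right). The orange line lies left of the blue in the left panel and right of it in the right panel.

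Short promoter motifs were counted on both strands of the same window of 300 bases. The ETS motif (CCGGAAGT) was in 3.50% of members, 8.50% of both-marked promoters and 4.27% of all gene starts. The GC box (GGGCGG) was in 57.4%, 66.8% and 40.1%, the TATA box (TATAAA) in 7.79%, 6.08% and 13.1%, and the CCAAT box (CCAAT) in 38.6%, 36.2% and 37.4%. Within the members the letters differed by RNA level. The ETS motif was in 0.96% of the 2181 genes under 1 CPM (interval 0.63 to 1.47%) and in 11.2% of the 627 genes of at least 10 CPM (8.93 to 13.9%), and at both-marked promoters it was in 5.02% and 9.39% of the same classes. The CCAAT box was in 33.2% of the former members and 51.5% of the latter, against 33.4% and 36.6% at both-marked promoters. Genes that face each other share part of a window, so that promoters are not independent, and a match is no evidence of a bound factor.

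Peaks at the edges of the rule show what it admits. The largest width, 3900 bp, was shared by 8 members, of which Pou3f1 (a POU factor of neural development), Kif26b and Tshz3 had the most H3K4me3 per kb. Among wider promoter peaks without an H3K18cr peak, the narrowest were those of Comp, Wnt1 and Prr22 at 4050 bp. Of 230 promoter peaks of 4 kb or wider, 12 lacked an H3K18cr peak. The farthest members from a gene start were A530016L24Rik (998 bp), Pax4 (998 bp) and Shmt2 (994 bp), and the nearest peaks outside lay at 1001 to 1005 bp. In 19 members an H3K18cr peak began at the next base, as for Bcl2, Nudt14 and Snhg9, while 22 both-marked peaks, those of Fancm, Dalrd3 and Parp3 among them, had the smallest overlap of 150 bp. The smallest width, 300 bp, was shared by 29 members, and the 3 of these with the most H3K4me3 per kb, Treml1, Pramel1 and Nudt14, held between 6.90 and 37.4 reads per library.

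In HCT116 cells the genes with the same symbols were examined, since the human tables were not used by the rule. A human namesake was found for 2847 of the 3712 genes (76.7%). A peak of the HCT116 table, which is a single list for H3K18cr and H3K18ac, lay within 1 kb of the start in 1429 of 2846 distinct namesakes (50.2%, interval 48.4 to 52.0%), against 87.5% of 8264 namesakes of both-marked genes. Among namesakes of members under 1 CPM in colon the share was 34.8%, and among the other members 67.9%. RNA of at least 1 CPM in all 4 DMSO libraries was found for 45.4% of the members' namesakes and 89.3% of the both-marked ones. By list, 38 of 95 developmental transcription factors had an HCT116 peak, 7 of 32 neuronal genes and 1 of 9 colon epithelial genes, while 12 of 14 histone genes, 9 of 13 mitochondrial genes and 7 of 9 translation genes had one.

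The 1330 HCT116 peaks at namesakes of members alone had fewer reads than those of both-marked genes in every ChIP library. The median H3K18cr level in DMSO was 55.4, 51.6 and 41.2 reads per kb against 64.9, 61.4 and 53.3, and with MS275 it was 37.5, 36.1 and 37.4 against 38.9, 38.1 and 42.1. H3K18ac in DMSO was at 39.1, 45.2 and 60.3 against 52.2, 61.6 and 83.3. The DMSO libraries of H3K18cr lay above those of MS275 at the members' namesakes, without overlap, whereas H3K18ac overlapped, with MS275 replicate 1 at 42.6 above DMSO replicate 1.

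MS275 lowered the scaled H3K18cr reads at these peaks. By limma with Benjamini-Hochberg adjustment over all peaks, 571 of 1329 tested (43.0%) fell, beside 23.0% of all 40033 peaks and 66.5% of those at both-marked namesakes. A rise was called for 1 (0.075%), beside 0.232% of all peaks. The median log2 change was -0.45 at members' namesakes, -0.62 at both-marked ones and -0.20 over all peaks. TMM scaling moves the median of all peaks to 0.04 and that of the members' namesakes to -0.20, and with it 270 peaks fell by the same test (20.3%, beside 11.1% of all peaks and 37.8% of those at both-marked namesakes) and 6 rose (0.451%, beside 1.88% of all peaks). Without replicate 1 the total called was 179, without replicate 2 it was 115 and without replicate 3 it was 867, beside 7.28%, 5.14% and 37.9% of all peaks. With the replicate block 656 fell (49.4%, beside 26.1% of all peaks). Values are shares of each library's reads, so a change of the mark in the whole genome is not measured.

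MZF1, a zinc finger factor, fell from 572, 618 and 668 reads in DMSO to 216, 224 and 328 with MS275 in its peak (GRCh38 chr19:58571851-58576500), a log2 change of -1.30 ± 0.16 (SE, limma adjusted p = 1.36e-05). The peak at ULK4 (chr3:41960551-41963400), a kinase-like gene, fell from 192, 231 and 277 to 74.2, 99.1 and 126 reads. The peak at IGBP1 (chrX:70132951-70134600), a regulator of phosphatase 2A, fell from 78.0, 83.3 and 104 to 43.9, 17.0 and 40.7 reads. The DMSO and MS275 libraries did not overlap at any of the 3.

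For H3K18ac 410 of 1328 (30.9%) fell, beside 16.3% of all 40098 peaks and 53.7% of those at both-marked namesakes. A rise was called for 3 (0.226%), beside 0.262% of all peaks. With the replicate block 71 fell (5.35%, beside 2.01% of all peaks and 6.50% of those at both-marked namesakes) and 0 rose. The share of rises over all peaks in that fit was 0.022%. At an unadjusted p under 0.05 by limma it gave 450 of 1328, beside 7346 of all 40098 peaks and 3543 of 6614 at both-marked namesakes. With TMM scaling 395 fell (29.7%, beside 16.6% of all peaks) and 44 rose (3.31%, beside 4.57%). The count rests on single replicate numbers. Without replicate 1, 2 or 3 the calls were 745, 0 and 53, beside 29.7%, 0.00250% and 2.19% of all peaks. Without replicate 2, 253 of 1328 were under an unadjusted p of 0.05 by limma, beside 3973 of all 40046 peaks. WDR90, a gene of cilia and centrioles, had 194, 332 and 420 reads in DMSO and 143, 84.1 and 82.8 with MS275 (chr16:647851-650550). TCTN3, a protein of the ciliary transition zone (chr10:95692651-95694150), had 144, 196 and 218 and then 67.5, 61.0 and 60.8 reads. The peak at DKC1 (chrX:154762651-154764150), the pseudouridine synthase dyskerin, had 87.2, 99.5 and 172 and then 61.0, 31.3 and 34.6 reads. WNT7A, a Wnt ligand (chr3:13878001-13880850), rose from 49.8, 49.8 and 41.2 to 106, 70.9 and 69.2 reads (limma adjusted p = 0.0141). Its adjusted p by limma was 0.106 with the replicate block, and 0.0774, 0.462 and 0.107 without replicate 1, 2 or 3. The calls on WDR90, TCTN3 and DKC1 were lost without replicate 2, with adjusted p of 0.404, 0.212 and 0.156 by limma. The libraries of DMSO and MS275 did not overlap at these 4 peaks.

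In RNA of the namesakes, 0 of 1683 tested genes passed an adjusted p of 0.05 by edgeR's quasi-likelihood test without the replicate block, beside 0.00668% of all 14961. By the same test 201 were under an unadjusted p of 0.05, beside 6.60% of all genes. DESeq2, also without the block, called 43 of 2431 (1.77%), beside 0.645% of all 24974 genes. Same-numbered DMSO and MS275 libraries deviated together, so the replicate number was also fitted as a block. In that fit 217 namesakes rose (12.9%, beside 7.83% of all genes) and 106 fell (6.30%, beside 6.55%). The median log2 change of the 1683 was 0.11, against -0.01 for both-marked namesakes and 0.01 for all genes. Without replicate 1, 2, 3 or 4 the blocked fit called 166, 159, 380 and 175 namesakes, beside 6.43%, 6.54%, 17.2% and 6.87% of all genes.

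NCAM1, a neural cell adhesion molecule, had 0.85, 1.43, 0.20 and 3.65 CPM in DMSO and 5.82, 14.2, 5.79 and 14.2 CPM with MS275. It rose by 3.05 ± 0.40 on the log2 scale in the blocked fit (SE, edgeR adjusted p = 0.000613, and 0.332 without the block), and the groups did not overlap. AMIGO2, an adhesion molecule of neurons, rose from 1.02, 1.82, 0.00 and 1.48 to 5.78, 8.29, 3.40 and 5.60 CPM without overlap, by 2.83 ± 0.65 on the log2 scale (SE, blocked edgeR adjusted p = 0.0131). Its blocked adjusted p by edgeR was 0.0561 without replicate 1 and 0.0656 without replicate 2. RCAN2, a calcineurin regulator, had 0.98, 1.32, 0.00 and 4.61 CPM in DMSO and 1.86, 10.8, 2.89 and 12.9 CPM with MS275, where the groups overlapped. Its blocked adjusted p by edgeR was 0.0276, and 0.156 without replicate 2.

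PDE4B, a cAMP phosphodiesterase, fell by 0.98 on the log2 scale in the blocked fit (edgeR adjusted p = 7.27e-05), from 109, 116, 59.4 and 117 to 61.2, 53.1, 26.8 and 69.4 CPM, and DMSO replicate 3 lay within the MS275 range. HTR7, a serotonin receptor, fell from 51.9, 35.2, 32.6 and 28.9 to 25.8, 19.8, 12.2 and 18.1 CPM without overlap (blocked edgeR adjusted p = 0.000723). TGFB1I1, a focal adhesion adaptor, had 11.8, 7.68, 8.06 and 9.42 CPM and then 10.0, 1.70, 4.66 and 4.44 CPM, which overlapped. Its blocked adjusted p by edgeR was 0.0274, and it was 0.0945 without replicate 2 and 0.0799 without replicate 4. By edgeR without the block, adjusted p of the 6 lay between 0.332 and 0.818. DESeq2 without the block called 3 of them, NCAM1 (adjusted p = 0.00429), HTR7 (0.0271) and PDE4B (0.0472), and edgeR without a filter on low counts called NCAM1 (adjusted p = 0.044).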

How the data were processed

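H3K4me3, H3K18cr and RNA were measured in colon epithelium, and H3K18cr, H3K18ac and RNA in HCT116 cells. The authors trimmed reads with Trim Galore, mapped ChIP-seq reads with Bowtie2 and RNA reads with HiSat2 (the submitters' processing notes name TopHat2) to GRCm38 or GRCh38, removed ChIP duplicates and called peaks with MACS in SEQMONK. The RNA tables hold raw read counts per gene as deposited. The colon ChIP tables hold a signal per peak as deposited, the read count of each library times a factor that scales it to the largest, and the H3K4me3 factors were 2.30, 2.67 and 1.93. The HCT116 ChIP table holds log2 of such scaled reads as deposited, with 0.9 read in place of 0. Columns of the authors' own comparisons were not used, and whether counting used strand is not stated.

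Each library was assigned by the labels. Gene starts are the outer ends of the RNA table's rows. Exon lengths came from GENCODE M21 and were found for 90.3% of members' genes and 90.1% of both-marked genes, and all peaks lay within the chromosomes of GRCm38.p6. Medians and shares over members carry no test. HCT116 RNA was tested with edgeR 4.0.16 (quasi-likelihood, TMM, filterByExpr), HCT116 peaks of at least 10 reads with limma 3.58.1 (with a mean-variance trend), in R 4.3.3, with Benjamini-Hochberg adjustment over the whole table, and DESeq2 1.42.0 was an alternative. The edgeR and limma fits were tested on simulated data. Other steps used Python 3.11.15.

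The labels do not say whether a replicate number marks a shared culture. After subtraction of group means, libraries that share a number correlated at 0.226, 0.151, 0.433 and 0.460 for HCT116 RNA, so these were treated as pairs, and the blocked value is given beside the other. The methods call the HCT116 RNA libraries biological replicates. They mention biological replicates of HCT116 ChIP beside qPCR without tying them to these libraries. For H3K18cr in colon and HCT116 they give 2 replicates, whereas 3 HCT116 libraries per treatment were tested here. The ChIP p-values therefore measure the spread between libraries, which may be technical. The study's legend names a paired test for these ChIP libraries, and values with the replicate block are given beside the others.

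The members and lists were chosen with earlier results of these data known. Genes named are the 6 members with the highest H3K4me3 per kb, the 6 with the highest RNA, up to 3 per list by H3K4me3 per kb, those at the edges of the rule, and up to 3 rises and 3 falls of the largest size in HCT116 among calls of at least 100 counts or 50 reads. This last part was also applied to the blocked RNA fit after the data were seen.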

Additional observations from a re-analysis of the deposited data

Results flagged for a closer look

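Of 12 groups of 4 HCT116 RNA libraries at the 6 named namesakes, 1 held a library far from the others. PDE4B RNA in DMSO replicate 3 was 59.4 CPM beside 109, 116 and 117 CPM, a gap of 0.865 of the range of the group, above Dixon's critical value at the 95% level. Chance gives such a gap in about 1 in 20 groups.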

How the results depend on the processing

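The share of narrow promoter peaks without H3K18cr (28.5%) was 27.3% within 500 bp of a start, 30.7% within 2 kb, 38.2% with all annotated transcript starts, 33.4% for peaks narrower than 2 kb, 27.5% with no H3K18cr peak within 1 kb, 45.5% when only H3K18cr peaks above the median ratio to input counted, and 19.099% among H3K4me3 peaks above the median ratio. The H3K4me3 difference was -1.30 without division by width. Without each replicate in turn it lay between -1.08 and -0.90, the enrichment difference between -0.99 and -0.81 and the RNA difference between -5.79 and -5.72. The RNA difference was -3.05 with a pseudocount of 1, -7.11 without exon length, -2.30 for genes of at least 1 CPM in a mouse, and -5.55, -4.56, -5.07 and -3.79 within quartiles of H3K4me3 reads. The share of silent genes (58.8%) was 32.6% at 0 counts and 48.96% under 0.1 CPM per kb. The CpG difference was -0.0591 in the peak and -0.130 in the promoter window. In the peak it reversed within quartiles of H3K4me3 reads to 0.0573, 0.0416, 0.0288 and 0.0157. The cause was not tested.

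Calls on RNA namesakes (0) were 323 with the replicate block, 4 without a filter and 43 by DESeq2. These were 19.2%, 0.165% and 1.77% of the namesakes tested, beside 14.4%, 0.0521% and 0.645% of all genes. Without a replicate number the calls lay between 0 and 1, beside at most 0.0531% of all genes. With the replicate block and number 1, 2, 3 or 4 left out they were 166, 159, 380 and 175, beside 6.43%, 6.54%, 17.2% and 6.87% of all genes. H3K18cr calls (572) were 343 by limma without a trend, 276 with TMM, 296 by edgeR on recovered reads, and between 115 and 867 without a replicate number. H3K18ac calls (413) were 71 with the replicate block and 263 by limma without a trend. These were 5.35% and 19.8% of the peaks tested at members' namesakes, beside 2.03% and 11.1% of all peaks. Without a replicate number the calls lay between 0 and 745, beside 0.00250% and 29.7% of all peaks. ChIP numbers did not meet the limit of 0.1 for pairs, since same-numbered H3K18ac libraries correlated at -0.207, 0.0489 and -0.134 and H3K18cr libraries at 0.108, 0.0740 and 0.230. The share of rises among H3K18ac calls was 3 of 413, and 44 of 439 with TMM, beside 105 of 6646 and 1834 of 8481 over all peaks. The trend, the blocked fits with a number left out and the list shares under other rules were chosen after seeing the data, and no list share left its interval. Depth limits the RNA of members, of which 1209 had 0 counts in 3 libraries, and 1 input limits the enrichment.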

Other observations

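On chromosome X 142 of 357 narrow promoter peaks (39.8%, interval 34.8 to 44.9%) were H3K4me3-only, against 3414 of 12139 on autosomes (28.1%, 27.3 to 28.9%), where single chromosomes ranged from 22.1% (chromosome 16) to 32.1% (chromosome 2). The mice were male, and X-linked peaks had a median of 85.2 H3K4me3 reads and 13 input reads, against 202 and 34 on autosomes, while the median log2 enrichment was 2.50 and 2.43. Within quartiles of H3K4me3 reads the order turned, with 120 of 237 peaks (50.6%) on X and 67.0% on autosomes in the lowest quartile, and 21.7% and 33.2% in the next. X-linked genes at H3K4me3-only promoters had a median of 0.171, 0.171 and 0.297 CPM per kb in the 3 mice, and 47.7% of 153 were under 1 CPM in every mouse, against 59.2% of 3559 autosomal ones.

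Of the genes at H3K4me3-only promoters 81.8% were annotated as protein coding and 7.97% as long noncoding, against 84.4% and 5.39% at both-marked promoters.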
